A study of Mus musculus with 35 samples.

Results

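The genes described here are the caveolins, Cav1, Cav2 and Cav3, the cavins, Cavin1, Cavin2 and Cavin3, and 3 proteins of the caveolar neck, Ehd2, Pacsin2 and Pacsin3. They were chosen as a named gene family, with no threshold on their values, and all 9 were found among the 54532 genes of the deposited tables. Caveolae are small flask-shaped pits of the plasma membrane that are dense in lung endothelium and in alveolar type 1 cells. Caveolins insert into the membrane as oligomers, cavins assemble over them as an outer coat, and Ehd2 with the pacsins holds the neck. Without caveolin-1, caveolae of non-muscle cells are lost and caveolin-2 protein is known to be unstable, which RNA does not measure.

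Whole lungs of 34 adult mice of at least 3 months were sequenced in 12 groups, formed by 3 genotypes, 2 sexes and 2 oxygen levels, to ask how Cav1 and sex shape the lung's response to chronic hypoxia. Control mice were wildtype B6/129SJ2. Cav1-KO mice carried the global knockout allele Cav1(tm1Mls). Cav1-RC mice were the knockout with Cav1 put back in endothelial cells, so that every Cav1-RC animal shares the deletion with the Cav1-KO animals, and the promoter and construct of that line are not given in the sources used here. Each genotype and sex was kept for 6 weeks either in normoxia or in 10% oxygen, with 3 mice per group, or 2 for the normoxic females of Cav1-KO and of Cav1-RC. Each library is 1 animal. The fold changes of the sexes were averaged, so that a genotype at 1 oxygen level holds 5 or 6 libraries, and fold changes are log2 values with a standard error (SE) and a p adjusted over all genes tested. A gene was called at an adjusted p under 0.05. Levels of 1 gene are in CPM, the counts of a gene scaled to 1 common library size, and levels of different genes were compared in FPKM, which divides by gene length.

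Depth ran from 12425535 to 33343006 counts per library (median 18015200). 1 further library, of a group that its labels do not settle, entered no comparison. The 12 endothelial marker genes were all expressed and summed to between 4336 and 7291 CPM. In 3 libraries labelled male, 1 of the 3 of Control hypoxia and 2 of the 3 of Cav1-RC normoxia, Xist and the Y chromosome genes were at female levels, and groups follow the labels. A second division of the libraries touched several members. The animal numbers of 12 libraries appear among the lanes of the study's western blots (here called listed) and those of 22 do not (unlisted). All 6 Cav1-KO hypoxia libraries, 4 of the 6 Control hypoxia libraries, 1 Control normoxia library and 1 Cav1-RC normoxia library were listed, and no Cav1-KO normoxia or Cav1-RC hypoxia library was. What the list stands for in the handling of the lungs is not given in the sources used here. In a fit over the 34 libraries with a term for the list, that term was called for 45.8% of 19870 genes, so values within 1 kind of library or with the list term are given beside members' results and named genes that moved with it. List and condition cannot be told apart between Cav1-KO hypoxia and Cav1-KO normoxia, between Cav1-RC and Cav1-KO in hypoxia or, in males, between Control hypoxia and either Control normoxia or Cav1-RC hypoxia. Within listed libraries the female Control arm of hypoxia holds 1 library, and within unlisted libraries the female Cav1-RC arm of normoxia holds 1. No male Control hypoxia library was unlisted, so unlisted values that use Control hypoxia are of females only.

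Cav1 encodes the main caveolin of endothelium and is the gene deleted in these mice, so it was read first as a check of the labels. It lies on chromosome 6 at 17306335 to 17341452 (plus strand, mm10). Control libraries held 989 to 1356 CPM (mean 1132 ± 114 SD, n = 12). The 11 Cav1-KO libraries held 1.61 to 3.997 CPM, from 29 to 104 counts each, or 0.142% to 0.353% of the Control mean. The 11 libraries labelled Cav1-RC held 1.48 to 6.56 CPM, from 31 to 106 counts each, or 0.131% to 0.58% of the Control mean. Cav1-KO and Control did not overlap, and neither did Cav1-RC and Control, while the ranges of Cav1-KO and Cav1-RC overlapped. Against Control, Cav1 in Cav1-KO changed by -8.88 (SE 0.24, adjusted p = 4.17e-09) in normoxia and by -8.81 (SE 0.19, adjusted p = 9.38e-11) in hypoxia. In the libraries labelled Cav1-RC, the change against Control was -8.98 (SE 0.25, adjusted p = 1.4e-08) in normoxia and -8.37 (SE 0.34, adjusted p = 1.29e-07) in hypoxia. Cav1-RC minus Cav1-KO was -0.11 (SE 0.27, adjusted p = 0.841) in normoxia and 0.44 (SE 0.31, adjusted p = 0.252) in hypoxia, and neither was called. Whether a transcript of the reconstituting construct would be counted under the Cav1 gene was not tested. Rpl29, a ribosomal protein gene named here after its values were seen, did separate those genotypes, at 132 to 187 CPM in Cav1-RC and 0.995 to 4.46 CPM in Cav1-KO, and Control libraries held 0.49 to 170.5 CPM. Within Control, Cav1 in hypoxia against normoxia was at 0.03 (SE 0.11, adjusted p = 0.949). In bulk RNA, fewer cells of a type and less RNA per cell cannot be told apart, here and for every other member.

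**Figure D1:**
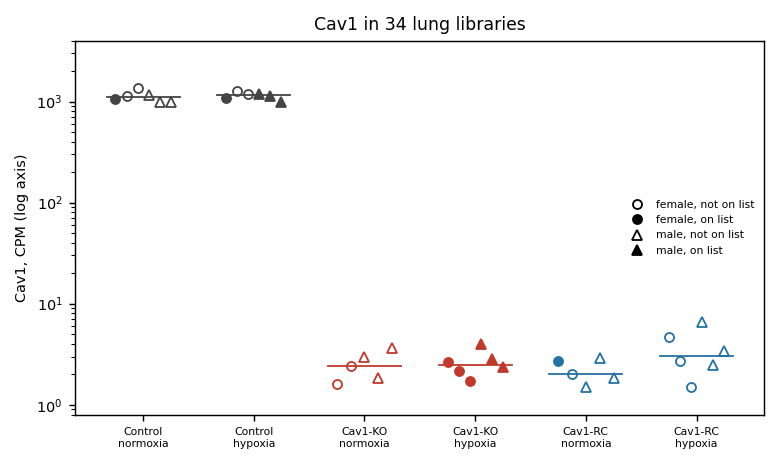
Cav1 in CPM on a log axis, 1 point per library, by genotype and oxygen, with circles for female, triangles for male, filled points for listed libraries and a line at each group's median. Control libraries sit between 989 and 1356 CPM, and all Cav1-KO and Cav1-RC libraries lie at or under 6.56 CPM.

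Per unit of gene length, Cav1 was the most abundant member in Control lungs. In Control normoxia the median FPKM was 319 for Cav1, 179 for Cavin1, 169 for Cavin2, 117 for Cav2, 78.5 for Ehd2, 29.8 for Pacsin2, 21.98 for Cavin3, 6.86 for Pacsin3 and 2.42 for Cav3. In that order the ranges over the 6 libraries of Cavin1, Cavin2, Cav2 and Ehd2 overlapped from each gene to the next, as did those of Pacsin2 and Cavin3. Cav1 (284 to 394 FPKM) lay above Cavin1 (155 to 216) with no overlap, and Pacsin3 (4.3 to 9.78) lay above Cav3 (1.43 to 3.76) with none. In Control libraries of both oxygen levels Cav1 made up 30.2 to 35.8% of the summed FPKM of the 9 members. The sum of the other 8 was 519 to 762 FPKM in Control normoxia and 898 to 984 in Cav1-KO normoxia, without overlap. In hypoxia the same sum was 536 to 847 in Control and 621 to 794 in Cav1-KO, with overlap. In the libraries labelled Cav1-RC it was 553 to 811 in normoxia and 668 to 876 in hypoxia.

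**Figure D2:**
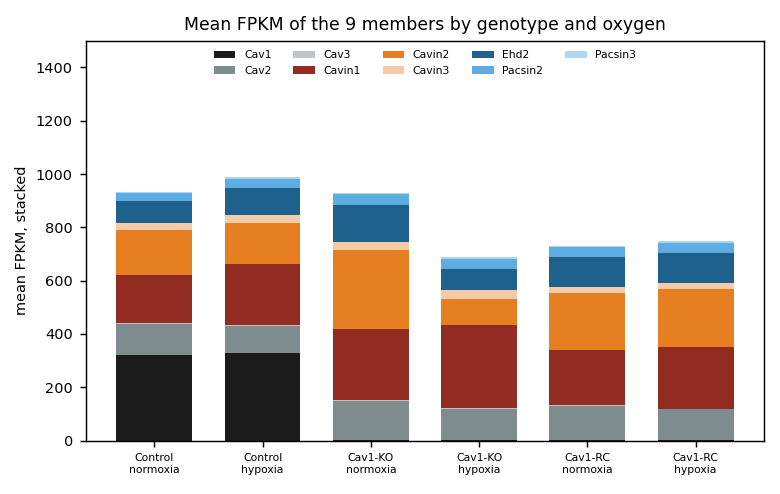
Mean FPKM of each of the 9 members, stacked, for each genotype and oxygen level (5 or 6 libraries per bar, no error drawn). Cav1 is the lowest band of the Control bars and is too small to see in the Cav1-KO and Cav1-RC bars, where it was at most 0.228% of the sum in any library.

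The promoter letters of Cav1, Cavin1, Cavin2 and Ehd2 are shown because Cav1 lost its RNA in the knockout while its partners at the membrane did not. Each sequence is the 250 bases before the gene's start in RefSeq (build GRCm38.p6), written 5′ to 3′ on the gene's strand, and RefSeq's starts can differ from those of the count table. Capitals mark the words searched on both strands: ACGTG and GCGTG, the cores of hypoxia response elements, GGGCGG, the GC box, and CCAAT.
The windows were chr6:17306085-17306334 (plus strand) for Cav1, chr11:100970618-100970867 (minus) for Cavin1, chr1:51288876-51289125 (plus) for Cavin2 and chr7:15967536-15967785 (minus) for Ehd2.
Cav1: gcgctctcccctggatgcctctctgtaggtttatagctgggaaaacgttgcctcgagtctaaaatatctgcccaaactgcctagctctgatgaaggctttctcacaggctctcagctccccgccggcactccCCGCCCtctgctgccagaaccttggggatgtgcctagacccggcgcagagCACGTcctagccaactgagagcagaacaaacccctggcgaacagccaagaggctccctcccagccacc
Cavin1: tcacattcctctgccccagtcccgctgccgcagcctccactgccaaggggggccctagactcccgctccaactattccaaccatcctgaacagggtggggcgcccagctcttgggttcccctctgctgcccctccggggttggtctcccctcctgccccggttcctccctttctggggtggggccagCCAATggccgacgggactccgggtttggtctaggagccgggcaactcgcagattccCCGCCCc
Cavin2: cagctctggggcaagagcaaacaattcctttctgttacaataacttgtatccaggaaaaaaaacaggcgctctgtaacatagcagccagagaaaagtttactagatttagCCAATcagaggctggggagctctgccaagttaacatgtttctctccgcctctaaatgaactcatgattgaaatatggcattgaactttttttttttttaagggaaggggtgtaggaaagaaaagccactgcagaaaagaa
Ehd2: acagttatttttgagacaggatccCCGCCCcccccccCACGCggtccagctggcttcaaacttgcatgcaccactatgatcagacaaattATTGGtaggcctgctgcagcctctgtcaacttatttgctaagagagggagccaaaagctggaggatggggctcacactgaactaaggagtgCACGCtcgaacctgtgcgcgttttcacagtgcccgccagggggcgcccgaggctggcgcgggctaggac
Cav1 held 1 ACGTG and 1 GGGCGG, Cavin1 held 1 GGGCGG and 1 CCAAT, and Cavin2 held 1 CCAAT only. Ehd2 held 2 GCGTG, 1 GGGCGG and 1 CCAAT. Among 32851 RefSeq promoter windows of that length, 16.6% held ACGTG, 28.2% GCGTG, 32.7% GGGCGG and 33.8% CCAAT, so each word is common and a match is a description of the letters only. The share of G and C was 59.6% for Cav1, 67.6% for Cavin1, 40.4% for Cavin2 and 58% for Ehd2, against a median of 52.4%. Of the 9 members, 8 had a window in the table, and Cavin3 had none.

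The question of the first comparison was how the other coat genes stood when Cav1 was missing. In normoxia, 4 of the 9 members were called in Cav1-KO against Control, namely Cav1, which was lower, and Cavin1, Ehd2 and Pacsin2, which were higher. Among all genes 13.2% were called. The median change of the 8 members other than Cav1 was 0.38, beside -0.03 over all genes tested. In the unlisted libraries alone 6 of the 9 were called, with Cavin2 and Cavin3 added, beside 16.9% of all genes. In hypoxia, 2 of the 9 were called, Cav1 lower and Cavin1 higher, beside 14.7% of all genes, and the median of the other 8 was 0.10. With the listed libraries alone the count in hypoxia was also 2, beside 2.02% of all genes. The summed endothelial markers were 6037 to 6173 CPM in Cav1-KO and 4336 to 6151 in Control in normoxia, and 4678 to 7291 and 4801 to 6477 in hypoxia. In normoxia the 9 alveolar type 1 markers summed to 6444 to 7519.8 CPM in Cav1-KO and 3950.1 to 7160.1 in Control, the 7 fibroblast markers to 2543 to 3148 and 1693 to 2619, and the 8 smooth muscle markers to 454 to 541 and 560.3 to 985. In hypoxia, 2 sums lay lower in Cav1-KO than in Control without overlap, those of the 6 alveolar type 2 markers, at 13284 to 21652 against 21664 to 36708 CPM (4 of 6 called lower), and of smooth muscle, at 469 to 811 against 824 to 1135 CPM (2 of 8 called lower). The fibroblast sums were 1001 to 1549 and 1398 to 3376 CPM (3 of 7 lower), those of alveolar type 1 3963 to 4897 and 3992 to 7969 (3 of 9 lower), of 6 adipocyte markers 8.72 to 151 and 50.2 to 128 (1 of 5 tested lower) and of 8 leukocyte markers 214 to 443 and 208 to 341 (1 of 8 lower). The 8 skeletal muscle markers summed to 9.53 to 16.04 CPM in Cav1-KO and 7.68 to 21.9 in Control. Of the 12 endothelial markers 3 were called higher in Cav1-KO in normoxia and 2 higher and 1 lower in hypoxia. In normoxia 5 of 8 smooth muscle markers were called lower in Cav1-KO, with sums that did not overlap. Of the 7 fibroblast markers 3 were higher and 1 lower there, and 2 of 9 of alveolar type 1 and 1 of 6 of alveolar type 2 were higher. Of 8 leukocyte markers 2 were lower, and 0 of cardiac muscle, skeletal muscle or adipocytes were called. No marker of these lists was at or under 3 counts in all libraries, and the part of such cells in the member values was not tested.

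**Figure D3:**
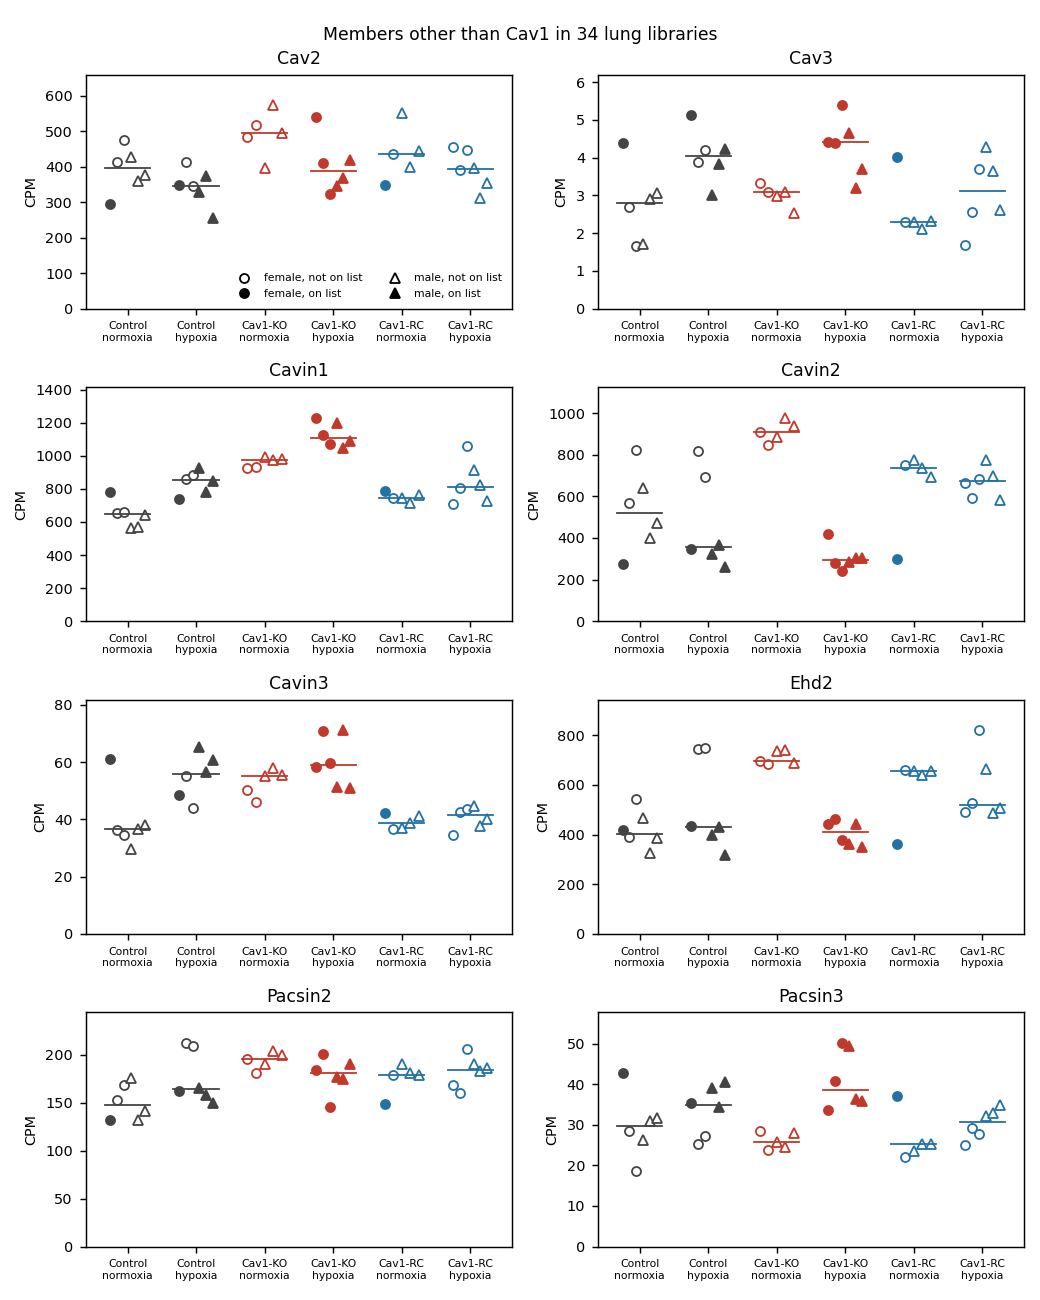
CPM of the 8 members other than Cav1, 1 point per library, by genotype and oxygen, with circles for female, triangles for male, filled points for listed libraries and a line at each group's median. Cavin1 in Cav1-KO lies above Control at both oxygen levels, and for Cavin2 and Pacsin3 most filled points lie apart from the open ones.

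**Figure D4:**
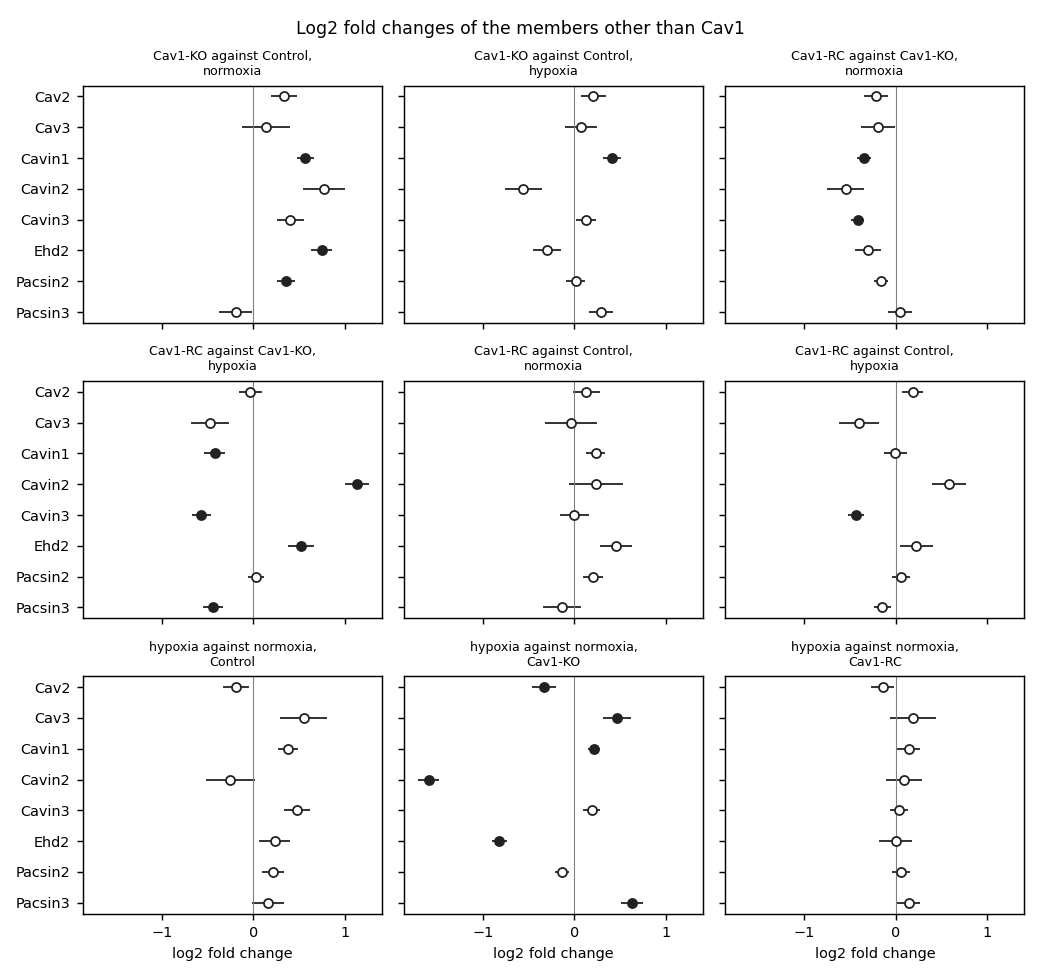
Log2 fold changes with SE bars for the 8 members other than Cav1 in the 9 comparisons, with filled points where the adjusted p was under 0.05. Cavin2 runs from -1.60 for hypoxia against normoxia in Cav1-KO to 1.13 for Cav1-RC against Cav1-KO in hypoxia.

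Among the caveolins, Cav2 encodes the partner that forms mixed oligomers with caveolin-1 and lies next to Cav1 on the same strand, on chromosome 6 at 17281185 to 17289115 (plus strand). It was not called by edgeR between Cav1-KO and Control at either oxygen level, except in normoxia without female Control replicate 3 (0.42, adjusted p = 0.0374). Cav2 was at 294 to 475 CPM in Control normoxia and 396 to 573 in Cav1-KO normoxia, a change of 0.34 (SE 0.14, adjusted p = 0.131) with overlap, and in hypoxia it changed by 0.21 (SE 0.14, adjusted p = 0.301). Between hypoxia and normoxia Cav2 in Cav1-KO was called lower, at -0.33 (SE 0.13, adjusted p = 0.0393), and with the list term it was 0.03 (adjusted p = 0.971). Leaving out 1 library at a time, the call of Cav2 was lost in 8 of 11 cases, female replicates 2 and 3 and male replicates 1 and 2 in hypoxia and female replicates 1 and 2 and male replicates 2 and 3 in normoxia, with adjusted p from 0.0591 to 0.116. Cav3, the muscle caveolin, lies farther along on chromosome 6 at 112459505 to 112472872 (plus strand) and had few counts, at 1.66 to 5.39 CPM (23 to 171 counts) over the 34 libraries. Cav3 in Cav1-KO was called higher in hypoxia than in normoxia, at 0.47 (SE 0.15, adjusted p = 0.01996), and was -0.22 (adjusted p = 0.797) with the list term. Without female Cav1-KO normoxia replicate 2 it was 0.45 (adjusted p = 0.0671). The list term was 0.70 (SE 0.24, adjusted p = 0.0191) for Cav3. In Cav1-RC against Cav1-KO in hypoxia Cav3 was called without female Cav1-RC replicate 3, at -0.65 (adjusted p = 0.017), and by limma on log2(FPKM + 1), at -0.37 (adjusted p = 0.048). The summed CPM of 12 cardiac muscle markers was 172 to 846 in listed and 710 to 1791 in unlisted libraries, the reverse of the direction of Cav3, and its part in the Cav3 values was not tested.

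Cavin1, on chromosome 11 at 100956733 to 100970887 (minus strand), encodes the coat protein without which caveolae do not form. By edgeR with the low-count filter, it was the only member besides Cav1 to be called in Cav1-KO against Control at both oxygen levels. The DESeq2 Wald test and the fit without that filter also called Cavin2 at both, higher in normoxia and lower in hypoxia. In normoxia, Control libraries held a lowest of 565, a median of 648 and a highest of 781 CPM. The 5 Cav1-KO normoxia libraries held 927, 934, 973, 981 and 994 CPM. Every Cav1-KO library thus lay above every Control library, and the change was 0.57 (SE 0.09, adjusted p = 0.00242). In hypoxia, Control libraries held a lowest of 739.6, a median of 855 and a highest of 929 CPM. Cav1-KO libraries held a lowest of 1049, a median of 1109 and a highest of 1229.9 CPM in hypoxia. The groups again did not overlap, with a change of 0.41 (SE 0.10, adjusted p = 0.0235). The normoxia change was 0.62 within unlisted libraries (adjusted p = 0.000498). The hypoxia change was 0.51 within listed libraries, which leave the female Control arm 1 library. The list term for Cavin1 was 0.02 (SE 0.11, adjusted p = 0.896) and was not called. The hypoxia call is the less firm of the pair, since it was lost in 7 of the 12 fits that left out 1 library, with adjusted p between 0.0508 and 0.0651 in those. The libraries left out were female replicate 2 and male replicates 2 and 3 of Control, and female replicates 1 and 2 and male replicates 1 and 3 of Cav1-KO.

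The libraries labelled Cav1-RC sat lower in Cavin1 than Cav1-KO, while their Cav1 RNA overlapped that of Cav1-KO. In normoxia the 5 libraries labelled Cav1-RC held 712, 745, 747, 766 and 789 CPM, all below the lowest Cav1-KO library, and Cav1-RC minus Cav1-KO was -0.35 (SE 0.08, adjusted p = 0.0215). That call was lost in 6 of 10 fits without 1 library, those without any 1 of the 5 Cav1-KO libraries or without male Cav1-RC replicate 2 (adjusted p from 0.0601 to 0.0873), and with the replicate number as a block it was -0.35 (adjusted p = 0.0579). Without the 2 male Cav1-RC libraries that go against their sex label it was -0.32 (adjusted p = 0.176), in a fit that leaves the male Cav1-RC arm 1 library, assumed to vary like the others. Within unlisted libraries, which leave the female Cav1-RC arm 1 library, it was -0.37. In hypoxia Cav1-RC libraries held a lowest of 706, a median of 813 and a highest of 1058 CPM, with a small overlap with Cav1-KO, and the difference was -0.42 (SE 0.11, adjusted p = 0.0076), or -0.41 (adjusted p = 0.08) with the list term. The summed endothelial markers in the libraries labelled Cav1-RC were 4843 to 5771 CPM in normoxia, below the Cav1-KO range, and 4502 to 5822 in hypoxia, overlapping it, with 2 and 6 of the 12 called lower than in Cav1-KO and 0 and 2 higher. In normoxia the summed alveolar type 2 markers of the libraries labelled Cav1-RC lay above the Cav1-KO range, at 22038 to 25084 against 18397 to 21319 CPM, with 1 of 6 called higher, and 2 of 8 leukocyte markers, 1 of 9 of alveolar type 1 and 1 of 12 of cardiac muscle were called higher and 1 of 7 fibroblast markers lower. In hypoxia, where 52.6% of all genes were called, other cell type markers were higher in the libraries labelled Cav1-RC: 8 of 12 of cardiac muscle, 5 of 9 of alveolar type 1, 5 of 6 of alveolar type 2, 5 of 5 tested of adipocytes, 5 of 8 of leukocytes and 2 of 7 of fibroblasts, while 3 of 8 of smooth muscle were lower. Their part in the Cavin1 values was not tested. Against Control, the libraries labelled Cav1-RC differed in Cavin1 by 0.23 (SE 0.10, adjusted p = 0.366) in normoxia and by -0.00061 (SE 0.12, adjusted p = 0.998) in hypoxia, and neither was called. Counted over all members, 2 of 9 were called in Cav1-RC against Cav1-KO in normoxia, Cavin1 and Cavin3, both lower, beside 9.38% of all genes.

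Cavin2, on chromosome 1 at 51289126 to 51302960 (plus strand), encodes a cavin that helps to curve the caveolar membrane, and its level divided by the list. Listed libraries held 240.4 to 420.0 CPM and unlisted libraries 401.9 to 978 CPM, so that they overlapped only between 401.9 and 420.0. The median of the summed alveolar type 1 markers moved the same way, at 4669 CPM in listed and 7033 in unlisted libraries. Their listed range, 3963 to 5613, lay within the unlisted one, 3950.1 to 7969. The fibroblast markers moved the same way, at 1001 to 1989.8 and 1514 to 3376, as did those of cardiac muscle, at 172 to 846 and 710 to 1791. The median of smooth muscle markers ran the other way, at 791 and 556. The part of these cells in the Cavin2 values was not tested. The list term for Cavin2 was -1.27 (SE 0.16, adjusted p = 2.47e-06). In normoxia, Control libraries held a lowest of 274, a median of 519 and a highest of 820.3 CPM, the lowest being the listed one. Cav1-KO normoxia libraries, all unlisted, held 848, 886, 909, 937 and 978 CPM. They did not overlap Control, yet the change of 0.78 (SE 0.23, adjusted p = 0.051) was not called by edgeR on the 11 libraries of the comparison. Other fits called it, at 0.78 by the DESeq2 Wald test (adjusted p = 0.00935), 0.78 without a low-count filter (adjusted p = 0.00545), 0.78 with DESeq2 size factors (adjusted p = 0.049993), 0.80 in 1 fit over the 34 libraries (adjusted p = 0.0216) 0.62 within unlisted libraries (adjusted p = 0.0155), 0.65 (adjusted p = 0.00107) with the list term and 0.90 (adjusted p = 0.0158) in males alone. The limma fits, the replicate block and the fit of females alone, at 0.65 (adjusted p = 0.569), did not. In hypoxia Control held a lowest of 263, a median of 358 and a highest of 816 CPM and Cav1-KO held a lowest of 240.4, a median of 294 and a highest of 420.0 CPM. The hypoxia change of -0.56 (SE 0.20, adjusted p = 0.0801) became -0.13 (adjusted p = 0.73) within listed libraries, with no call by edgeR in either. The DESeq2 Wald test (-0.57, adjusted p = 0.0369) and the fit without a low-count filter (-0.56, adjusted p = 0.0309) did call it over the 12 libraries. Without female Control replicate 1, the listed one of its group, Cavin2 in hypoxia was called at -0.71 (adjusted p = 0.00198), as were Ehd2 at -0.42 (adjusted p = 0.00708) and Pacsin3 at 0.36 (adjusted p = 0.0342), and in that fit the female Control libraries were all unlisted and the Cav1-KO libraries all listed. In normoxia Cavin2 was called without female Control replicate 1 or 3 or male Control replicate 1 (0.62 to 0.98, adjusted p from 0.00628 to 0.0314). Of these, the fit without female Control replicate 1 is the same fit as that within unlisted libraries above. In the libraries labelled Cav1-RC minus Cav1-KO in normoxia, Cavin2 was -0.29 without the listed female Cav1-RC replicate 1, which is the fit within unlisted libraries. Without the unlisted replicate 2 it was -0.95. Each of these fits leaves that arm 1 library, assumed to vary like the other groups. Without that replicate 2, Ehd2 was -0.55 and Pacsin2 -0.23. Against Control in hypoxia, Cavin2 in Cav1-RC was called higher without female Control replicate 1 (0.44, adjusted p = 0.0434) or 2 (0.70, adjusted p = 0.0472), and over all 12 libraries it was 0.58 (SE 0.19, adjusted p = 0.0727) by edgeR and was called by the DESeq2 Wald test, at 0.58 (adjusted p = 0.0247). In libraries labelled male alone it was called at 1.09 (adjusted p = 0.00185), and in females alone it was 0.08 (adjusted p = 0.999). In this comparison 4 Control libraries were listed, among them all the male ones, and no Cav1-RC library was. Within unlisted libraries, where only females remain in Control, the value was -0.21 (adjusted p = 0.453). With the list term, over both sexes, it was -0.24 (adjusted p = 0.391), with no call in either.

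Against Cav1-KO in hypoxia, Cavin2 was higher in the libraries labelled Cav1-RC, at a lowest of 582, a median of 675 and a highest of 774 CPM, without overlap and by 1.13 (SE 0.13, adjusted p = 3.5e-05). Here all Cav1-KO libraries were listed and no Cav1-RC library was, and with the list term the difference was -0.14 (adjusted p = 0.715). Between hypoxia and normoxia in Cav1-KO, Cavin2 was lower, at -1.60 (SE 0.12, adjusted p = 8.46e-07), and this was -0.33 (adjusted p = 0.472) with the term. The FPKM of Cavin1 divided by that of Cavin2 shows the same split without any scaling between libraries. The ratio was 0.687 to 1.31 in the 22 unlisted libraries and 1.8 to 3.79 in the 12 listed ones, with no overlap.

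**Figure D5:**
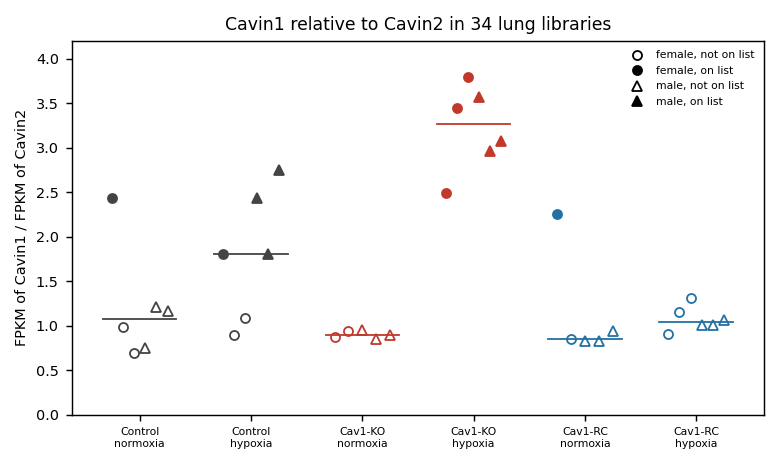
FPKM of Cavin1 divided by FPKM of Cavin2, 1 point per library, by genotype and oxygen, with circles for female, triangles for male, filled points for listed libraries and a line at each group's median. Open points lie from 0.687 to 1.31 and filled points from 1.8 to 3.79.

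Cavin3, on chromosome 7 at 105480083 to 105482300 (minus strand), encodes the cavin that binds protein kinase C delta, and its level was lower in the libraries labelled Cav1-RC than in Cav1-KO at both oxygen levels. In normoxia Cav1-RC libraries held 36.7, 37.1, 38.6, 41.04 and 42.1 CPM. Cav1-KO libraries held 46.2, 50.1, 55.1, 55.6 and 57.98 CPM. The groups did not overlap, and the difference was -0.41 (SE 0.07, adjusted p = 0.00684), or -0.47 in unlisted libraries, which leave the female Cav1-RC arm 1 library. The call was lost without the 2 male Cav1-RC libraries against their sex label, at -0.37 (adjusted p = 0.091) with 1 male Cav1-RC library left, and in 1 fit over the 34 libraries, at -0.43 (adjusted p = 0.0526), while with the list term in that fit it was -0.51 (adjusted p = 0.00979). In hypoxia Cav1-RC libraries held a lowest of 34.5, a median of 41.4 and a highest of 44.6 CPM. Cav1-KO libraries held a lowest of 51.1, a median of 59 and a highest of 71.1 CPM, again with no overlap, and the difference was -0.57 (SE 0.11, adjusted p = 0.000739), or -0.25 (adjusted p = 0.399) with the list term. Against Control, Cavin3 in Cav1-KO differed by 0.41 (SE 0.15, adjusted p = 0.0942) in normoxia over the 11 libraries of the comparison, by 0.57 (adjusted p = 0.00103) in unlisted libraries, by 0.43 (adjusted p = 0.0205) in 1 fit over the 34 libraries and by 0.50 (adjusted p = 0.00336) with the list term in that fit, and the last 3 were called. In males alone it was called at 0.70 (adjusted p = 0.00686), and in females alone it was 0.11 (adjusted p = 0.869). The list term for Cavin3 was 0.33 (SE 0.13, adjusted p = 0.0461). Against Control in hypoxia, Cavin3 in the libraries labelled Cav1-RC was lower, at -0.43 (SE 0.09, adjusted p = 0.0153), and without male Cav1-RC replicate 2 it was -0.40 (adjusted p = 0.0511). Within unlisted libraries, where only females remain in Control, the value was -0.29 (adjusted p = 0.247). Over all libraries of that comparison 2 of 9 members were called, Cav1 and Cavin3, both lower, or 1 without the deleted Cav1, beside 9.06% of all genes. In normoxia Cav1 alone was called in Cav1-RC against Control, beside 3.33% of all genes.

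At the caveolar neck, Ehd2, on chromosome 7 at 15946958 to 15967567 (minus strand) and encoding the ATPase that holds caveolae at the membrane, was higher in Cav1-KO in normoxia. Control normoxia libraries held a lowest of 325.9, a median of 404 and a highest of 544 CPM. Cav1-KO normoxia libraries held 685, 689, 697, 737 and 742 CPM. No library of either group entered the other's range, and the change was 0.75 (SE 0.12, adjusted p = 0.00269), with 0.73 (adjusted p = 0.00279) in unlisted libraries. In hypoxia the change of -0.30 (SE 0.15, adjusted p = 0.18) was not called and was -0.0038 (adjusted p = 0.993) within listed libraries. Ehd2 moved with the list as Cavin2 did, at 319 to 461 CPM in listed and 325.9 to 819 in unlisted libraries and with a term of -0.58 (SE 0.17, adjusted p = 0.00598). Cav1-RC minus Cav1-KO in hypoxia was 0.52 (SE 0.14, adjusted p = 0.008003), and -0.07 (adjusted p = 0.887) with the list term. In normoxia, Ehd2 in the libraries labelled Cav1-RC was 0.46 (SE 0.17, adjusted p = 0.258) relative to Control and 0.47 (adjusted p = 0.0225) with the list term. In unlisted libraries, which leave the female Cav1-RC arm 1 library, it was 0.61. Among libraries labelled male Ehd2 was called higher in Cav1-RC than in Control at both oxygen levels, at 0.72 (adjusted p = 0.0292) in normoxia and 0.52 (adjusted p = 0.034) in hypoxia, and in females it was 0.18 (adjusted p = 0.9999) and -0.06 (adjusted p = 0.999). In hypoxia all male Control libraries were listed and no male Cav1-RC library was. Over both sexes the hypoxia value was 0.23 (SE 0.18, adjusted p = 0.432). Within unlisted libraries, where only females remain in Control, it was -0.28 (adjusted p = 0.469).

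Pacsin2, on chromosome 15 at 83375607 to 83464606 (minus strand) and encoding an F-BAR protein that bends the neck, was also higher in Cav1-KO in normoxia. Control libraries held a lowest of 132, a median of 147 and a highest of 176 CPM. Cav1-KO libraries held 181, 191, 196, 200.01 and 204 CPM. The groups were separate by a narrow gap, and the change of 0.36 (SE 0.10, adjusted p = 0.0389) lost its call in 8 of 11 fits without 1 library, any 1 of the 5 Cav1-KO libraries, female Control replicate 2 or male Control replicate 2 or 3 (adjusted p from 0.0768 to 0.151), and with the replicate number as a block it was 0.36 (adjusted p = 0.0846). Within unlisted libraries it was 0.32 (adjusted p = 0.0348) and without a low-count filter 0.36 (adjusted p = 0.0551). In hypoxia it was 0.01 (SE 0.10, adjusted p = 0.938). The list term for Pacsin2 was -0.32 (SE 0.10, adjusted p = 0.00865). Pacsin3, on chromosome 2 at 91255954 to 91264679 (plus strand) and encoding the F-BAR protein of muscle caveolae, was not called between Cav1-KO and Control over all libraries, with -0.19 (SE 0.18, adjusted p = 0.473) in normoxia and 0.29 (SE 0.13, adjusted p = 0.133) in hypoxia, and in hypoxia it was called without female Control replicate 1 (0.36, adjusted p = 0.0342). It was higher in listed (33.6 to 50.1 CPM) than in unlisted libraries (18.6 to 34.9 CPM), with a list term of 0.66 (SE 0.14, adjusted p = 0.00033). Over all libraries of a comparison, its 2 called changes lay where list and condition coincide. Hypoxia against normoxia in Cav1-KO gave 0.63 (SE 0.12, adjusted p = 0.000846), which was -0.03 (adjusted p = 0.968) with the term, and Cav1-RC minus Cav1-KO in hypoxia gave -0.45 (SE 0.11, adjusted p = 0.00517), which was 0.21 (adjusted p = 0.512) with the term. Among libraries labelled male, all unlisted, Pacsin3 in Cav1-RC was called higher in hypoxia than in normoxia, at 0.44 (adjusted p = 0.0162). In females alone it was -0.14 (adjusted p = 0.962), and in unlisted libraries of both sexes, with 1 female normoxia library, it was 0.37. Of the 3 normoxia libraries labelled male, 2 had female levels of Xist and the Y chromosome genes. Over both sexes Pacsin3 was 0.14 (adjusted p = 0.748) with them, in 1 fit over the 34 libraries. Without them, with 1 male normoxia library left, it was also 0.14.

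The response to 10% oxygen was then read in each genotype. In Control, 0 of the 9 members were called by edgeR, 2 had an unadjusted p under 0.05, and DESeq2 called 1, Cavin1, beside 1.44% of all genes. The smallest adjusted p values were those of Cavin1, at 0.38 (SE 0.11, adjusted p = 0.123), and Cavin3, at 0.48 (SE 0.15, adjusted p = 0.151), and the Control groups overlapped for every member. Cavin1 was called without female Control replicate 1 of normoxia (0.42, adjusted p = 0.0498) or of hypoxia (0.42, adjusted p = 0.0397), and Cavin3 without that of normoxia (0.63, adjusted p = 0.00767). In 1 fit over the 34 libraries both were called, Cavin1 at 0.40 (adjusted p = 0.00994) and Cavin3 at 0.49 (adjusted p = 0.0115). With the list term 5 members were called higher in Control hypoxia, beside 18.6% of all genes: Cavin1 at 0.39 (adjusted p = 0.0118), Cavin2 at 0.41 (adjusted p = 0.048), Cavin3 at 0.35 (adjusted p = 0.0432), Ehd2 at 0.51 (adjusted p = 0.0181) and Pacsin2 at 0.39 (adjusted p = 0.00412). Within unlisted libraries, where only females remain in hypoxia, none of the 5 was called by edgeR, with folds near or above these for Cavin1 at 0.38 (adjusted p = 0.123), Cavin3 at 0.45 (adjusted p = 0.115), Ehd2 at 0.65 (adjusted p = 0.0939) and Pacsin2 at 0.36 (adjusted p = 0.172) and a smaller one for Cavin2 at 0.09 (adjusted p = 0.844). Within listed libraries the contrast was of 1 female hypoxia library with 1 female normoxia library, each assumed to vary like the others. The listed male hypoxia libraries entered the estimate of the spread only. There Cavin1 at -0.10 and Cavin3 at -0.36 had the opposite sign, and Cavin2 was 0.33, Ehd2 0.04 and Pacsin2 0.28. In the libraries labelled Cav1-RC, 0 members were called, 0 had an unadjusted p under 0.05 and DESeq2 called 0, beside 2.17% of all genes. Cavin2 was called there without female Cav1-RC normoxia replicate 2 (0.51, adjusted p = 0.0397), which leaves that arm its listed library, and Pacsin3 in the libraries labelled male alone. In Cav1-KO, 6 members were called, beside 61.7% of all genes, with Cav3, Cavin1 and Pacsin3 higher and Cav2, Cavin2 and Ehd2 lower in hypoxia. Of cell type markers there, 6 of 12 endothelial were higher and 4 lower, and 3 of 8 of smooth muscle higher and 1 lower. Of alveolar type 1, 5 of 9 were lower and 1 higher, and 5 of 6 of alveolar type 2, 5 of 7 of fibroblasts and 7 of 11 tested of cardiac muscle were lower. Of adipocytes 2 of 5 tested and of skeletal muscle 1 of 5 were lower, and of leukocytes 2 of 8 went each way. Their part in the member values was not tested. With the list term 0 of the 9 members were called by edgeR and 0 had an unadjusted p under 0.05, beside 1.22% of all genes, and since all Cav1-KO hypoxia libraries were listed and no Cav1-KO normoxia library was, the list and the oxygen level cannot be told apart. In the comparison of Cav1-RC with Cav1-KO in hypoxia, with the same division, 5 members were called, beside 52.6% of all genes, with Cavin2 and Ehd2 higher and Cavin1, Cavin3 and Pacsin3 lower in the libraries labelled Cav1-RC, and with the list term 0 were called by edgeR and 3 had an unadjusted p under 0.05, beside 7.98% of all genes.

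The hypoxia response of Cav1-KO minus that of Control differed from 0 for Cavin2, at -1.35 (SE 0.33, adjusted p = 0.0126), and for Ehd2, at -1.07 (SE 0.20, adjusted p = 0.00509). In 1 fit over the 34 libraries, which adds the Cav1-RC libraries to the estimate of the spread, Pacsin2 was called too, at -0.36 (adjusted p = 0.0497), and with the list term it was -0.20 (adjusted p = 0.332). Leaving out a Control library also gave calls for Pacsin2 (-0.41 to -0.43 without female normoxia replicate 3, female hypoxia replicate 1 or male normoxia replicate 1), Cavin3 (-0.46 without female normoxia replicate 1) and Pacsin3 (0.58 without female normoxia replicate 3). Over the libraries of both genotypes, 2 of the 9 members were called, beside 20.2% of all genes. Both lost in size with the list term but were still called, Cavin2 at -0.74 (adjusted p = 0.031) and Ehd2 at -0.76 (adjusted p = 0.0374), beside 4.34% of all genes. Listed and unlisted libraries meet within a sex in 3 groups only, on which the term rests: normoxic and hypoxic Control females and normoxic Cav1-RC females. Without the term, 5 of 9 alveolar type 1 markers were called lower in the Cav1-KO difference, as were 5 of 6 of alveolar type 2, 4 of 7 of fibroblasts and 1 of 6 of adipocytes. Of 12 endothelial markers 2 were higher and 1 lower, and 1 of 12 of cardiac muscle was higher. Their part in the Cavin2 and Ehd2 values was not tested. For the libraries labelled Cav1-RC, the same difference from Control was called by edgeR for 0 members and 1 had an unadjusted p under 0.05, beside 0.114% of all genes, while with the list term Pacsin2 was called at -0.41 (adjusted p = 0.0467). These differences share the Control libraries with the comparisons above.

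Sexes were treated as separate groups in the study, and the difference of each fold change between female and male libraries was tested for every member. None of the 81 tests was called, 5 had an unadjusted p under 0.05, and DESeq2 called 0. The smallest adjusted p was 0.216, for Cavin2 in Cav1-RC against Control in hypoxia, where the difference between the sexes was -1.01 and where 3 listed male Control libraries met 1 listed female one. Leaving out single libraries gave calls in 4 of the comparisons. Without the listed female Control hypoxia replicate 1 the sexes differed for Cavin2 (-1.19, adjusted p = 0.00891) and Ehd2 (-0.84, adjusted p = 0.0111) in Cav1-KO against Control and for Cavin2 (-1.31, adjusted p = 0.00509) in Cav1-RC against Control, female minus male. Without the unlisted female Cav1-RC normoxia replicate 2 they differed for Cavin2 (-1.21, adjusted p = 9.24e-05), Ehd2 (-0.77, adjusted p = 0.0005) and Pacsin3 (0.59, adjusted p = 0.0171) in Cav1-RC against Cav1-KO in normoxia, and for Cavin2 (1.22) and Pacsin3 (-0.88) in the response of Cav1-RC to hypoxia (adjusted p = 0.022 for both). In each of these fits the sexes differ in how many libraries are listed. In the tests that use Cav1-RC normoxia, 2 of the 3 libraries labelled male had female levels of Xist and the Y chromosome genes, and in those that use Control hypoxia 1 of 3 did. Fits of 1 sex alone called further members that were not called over both sexes. In libraries labelled male Cavin2 was lower in Cav1-RC than in Cav1-KO in normoxia, at -0.35 (adjusted p = 0.00699), beside -0.74 (adjusted p = 0.719) in females. Cavin1 was higher in Control hypoxia than in Control normoxia in libraries labelled male, at 0.53 (adjusted p = 0.0324), beside 0.20 (adjusted p = 0.871) in females. Cavin3 was likewise higher there, at 0.82 (adjusted p = 0.0109), beside 0.11 (adjusted p = 0.919), in a comparison where all male hypoxia libraries were listed and no male normoxia library was. In females Cavin3 was higher in Cav1-KO hypoxia than in Cav1-KO normoxia, at 0.36 (adjusted p = 0.0411), beside 0.02 (adjusted p = 0.924) in males. A p above the threshold does not show that the sexes respond alike.

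Genes that act beside caveolae were read for context from a list of 14 trafficking genes. In Cav1-KO against Control in normoxia 3 of the 14 were called higher, beside 13.2% of all genes called, Ehd3 at 1.10 (adjusted p = 0.00165), Ehd1 at 0.52 (adjusted p = 0.00426) and Flot2 at 0.32 (adjusted p = 0.0442), with a list median of 0.11 beside -0.03 over all genes. Ehd1 and Ehd3 are endocytic recycling ATPases of the Ehd2 family, and Flot2 encodes a flotillin, another membrane scaffold. Flot2 was not called with the list term, at 0.23 (adjusted p = 0.151). In hypoxia edgeR called 0 of the 14, beside 14.7% of all genes, and 4 had an unadjusted p under 0.05, while with the list term Ehd1 and Ehd3 were called, at 0.34 (adjusted p = 0.0477) and 0.48 (adjusted p = 0.0136). Ehd3 was lower in the libraries labelled Cav1-RC than in Cav1-KO in normoxia, at -1.05 (adjusted p = 0.00221), and Ehd4 at -0.43 (adjusted p = 0.0481) was the other of 2 called, beside 9.38% of all genes. Ehd3 with the list term was -0.92 (adjusted p = 6.57e-05) and Ehd4 -0.36 (adjusted p = 0.143). Plvap, which encodes the protein of the diaphragm that spans the caveolar mouth, was lower with hypoxia in each genotype, at -2.39 for Control, -2.92 for the knockout and -1.73 for Cav1-RC (adjusted p = 1.86e-05, 6.18e-06 and 0.000683). Plvap with the list term was called in each, at -2.23 (adjusted p = 1.73e-06), -2.60 (adjusted p = 0.000174) and -1.79 (adjusted p = 2.57e-05) in that order. In Cav1-KO 8 of the 14 were lower and 1 was higher in hypoxia, beside 61.7% of all genes called and with list and oxygen level coinciding, and 4 were higher in the libraries labelled Cav1-RC than in Cav1-KO in hypoxia, beside 52.6% of all genes.

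Of 16 genes for proteins reported to bind caveolin or signal from caveolae, 15 were tested. In Cav1-KO against Control in normoxia 2 were called, beside 13.2% of all genes, both higher: Scarb1, the HDL receptor, at 0.98 (adjusted p = 0.00462) and Aqp1, the endothelial water channel, at 0.94 (adjusted p = 0.0168). In hypoxia 4 were called, beside 14.7% of all genes, of which 3 were lower: Cd36 at -1.02 (adjusted p = 0.017), Kdr at -0.82 (adjusted p = 0.0197) and Egfr at -0.50 (adjusted p = 0.0189). Within listed libraries, which leave the female Control arm 1 library, Egfr was -0.60, Cd36 -0.59 and Kdr -0.41. With the list term in the fit over the 34 libraries all 3 were called, Cd36 at -0.56 (adjusted p = 0.0113), Kdr at -0.39 (adjusted p = 0.0469) and Egfr at -0.46 (adjusted p = 0.0291). In normoxia Scarb1 and Aqp1 kept their calls within unlisted libraries, at 0.90 (adjusted p = 0.00383) and 0.82 (adjusted p = 0.0136). The list medians of 0.27 in normoxia and -0.16 in hypoxia stood beside -0.03 and 0.01 over all genes. Trpv4, a calcium channel, was higher with hypoxia in each genotype, at 1.65 for Control, 1.71 for the knockout and 1.20 for Cav1-RC (adjusted p = 0.00202, 7.43e-06 and 0.0028). Trpv4 with the list term was called in each, at 1.37 (adjusted p = 2.26e-05), 1.06 (adjusted p = 0.0419) and 1.39 (adjusted p = 2.57e-05) in that order. In the libraries labelled Cav1-RC against Cav1-KO, 1 was called in normoxia, Scarb1, lower at -0.57 (adjusted p = 0.026), or -0.40 (adjusted p = 0.128) with the list term, beside 9.38% of all genes, and 5 were higher and 2 lower in hypoxia, beside 52.6%. Hypoxia against normoxia in Cav1-KO gave 3 higher and 9 lower, beside 61.7%.

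Around Cav1, 23 genes start within 0.5 Mb, and 9 of them were tested in Cav1-KO against Control in normoxia. Besides Cav1, Tes was called there, at 0.57 (adjusted p = 0.0122). Gm15581 is annotated as an antisense gene that spans both Cav1 and Cav2. It had 0 to 13 counts in Control libraries, 7 to 71 in Cav1-KO and 6 to 40 in Cav1-RC, and Cav1-KO minus Control was 1.28 (adjusted p = 0.0621) in normoxia and 2.94 (adjusted p = 0.00314) in hypoxia. With the list term these were 1.66 (adjusted p = 0.0272) and 2.57 (adjusted p = 0.0012), and the hypoxia value within listed libraries was 2.60 (adjusted p = 0.0135). Counting is stated to have used default parameters, under which featureCounts does not use strand, so reads of Gm15581 and of Cav1 or Cav2 cannot be told apart where they overlap, and 6 members have such an overlapping gene. The processed pseudogene Gm5417 within Pacsin2 had 3 to 112 counts, and the genes over Cavin2, Cavin3 and Pacsin3 had at most 13.

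The genes whose log2 CPM ran most like each member over the 34 libraries (Pearson r among 19870 genes) are given as a description, since all points share the libraries, their depth and the list. For Cav1 these were Decr2 (r = 0.95), Rnps1 (r = 0.95) and Gm21451 (r = 0.938). For Cav2 they were Manea (r = 0.83), Taok1 (r = 0.823) and Mib1 (r = 0.802). For Cav3 they were Sdhc (r = 0.82), Tmem160 (r = 0.809) and Timm13 (r = 0.806). For Cavin1 they were Dmtn (r = 0.841), Sdcbp (r = 0.833) and Tie1 (r = 0.83), the last an endothelial receptor gene that is also among the marker genes used here. For Cavin2 they were Sypl (r = 0.969), Arhgef26 (r = 0.968) and Arhgef3 (r = 0.964), and in the 22 unlisted libraries alone these r values were 0.846, 0.893 and 0.86. Ehd2 was most like Msn (r = 0.958), Nacc1 (r = 0.938) and Maea (r = 0.936), and the r with Msn in unlisted libraries was 0.969. Pacsin2 was most like Heg1 (r = 0.902), Dlg1 (r = 0.885) and Ephb4 (r = 0.877). Pacsin3 was most like Lpcat4 (r = 0.924), Slc25a3 (r = 0.909) and Utp3 (r = 0.902), where the unlisted r with Lpcat4 was 0.758. Cavin3 was most like Gpx7 (r = 0.837), Ddah2 (r = 0.819) and Pdlim1 (r = 0.814).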

How the data were processed

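Poly-A RNA of 34 assigned whole-lung libraries was analysed. The authors made directional paired-end libraries, mapped reads to mm10 with HISAT2 2.0.5 and counted them per gene with featureCounts 1.5.0-p3, at its defaults, which do not use strand. The deposited counts are whole numbers per gene (12425535 to 33343006 per library). The authors' deposited FPKM divide these by gene length and library size. 1 library of unsettled group was left out of every comparison. The study itself used DESeq2 with an absolute log2 fold change above 1.

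From the counts, edgeR 4.0.16 in R 4.3.3 (TMM, filterByExpr, glmQLFit, glmQLFTest) tested the mean of the female and male fold changes on the 4 groups of each comparison, interactions on 8 groups, with Benjamini-Hochberg adjustment over all genes tested; a gene was called under 0.05. p-values measure the spread between animals. The script was tested on simulated data. CPM used TMM over 34 libraries, and log2 CPM a prior count of 2. Alternatives were DESeq2 1.42.0 (size factors and Wald test), no filter, limma 3.58.1 on log2(FPKM + 1) and log2(FPKM + 0.1) with an FPKM filter of 0.1 or none, 1 fit over 34 libraries, 1 sex, no libraries against their sex label, listed or unlisted libraries only, a list term, a replicate block and each library left out. The list coefficient of each member, and the context genes within 1 kind of library or with the list term, were added after seeing the data. Intervals of depth cover counting error only.

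Named are all members, up to 3 genes per list with the smallest adjusted p in a comparison, genes starting within 0.5 Mb of Cav1, genes overlapping a member and the 3 genes most like each member. Marker lists were endothelial, alveolar type 1, alveolar type 2, fibroblast, smooth muscle, cardiac muscle, skeletal muscle, adipocyte and leukocyte. Members and lists were chosen with earlier results of these data known, and the promoter words with the sequences in view. Promoters are from RefSeq (GRCm38.p6). None of 32 replicate pairs agreed within sampling noise (chi-square per gene 4.37 to 178). Replicate numbers were not treated as pairs. The result of 1 gene of the signalling list is not reported here.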

Additional observations from a re-analysis of the deposited data

Results flagged for a closer look

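Within groups of 1 genotype and oxygen level, 54 sets of member values were searched for a library far from the rest, and 7 were found, a search in which chance alone marks some. Of these, 5 were the same library, female Cav1-RC normoxia replicate 1, the only listed library of its group. It had the highest Cav3 (4.03 CPM, next 2.32) and Pacsin3 (37.2 CPM, next 25.3) and the lowest Cavin2 (298 CPM, next 694), Ehd2 (363 CPM, next 638) and Pacsin2 (149 CPM, next 179) of the 5. Female Control normoxia replicate 1, the only listed library of that group, had the highest Cavin3 (61.2 CPM, next 37.9). Female Cav1-KO hypoxia replicate 1 had the highest Cavin2 (420.0 CPM, next 303) among 6 listed libraries. Over the 34 libraries the list term was 0.70 (SE 0.24, adjusted p = 0.0191) for Cav3, -1.27 (SE 0.16, adjusted p = 2.47e-06) for Cavin2, 0.33 (SE 0.13, adjusted p = 0.0461) for Cavin3, -0.58 (SE 0.17, adjusted p = 0.00598) for Ehd2, -0.32 (SE 0.10, adjusted p = 0.00865) for Pacsin2 and 0.66 (SE 0.14, adjusted p = 0.00033) for Pacsin3.

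The response to hypoxia differed between Cav1-KO and Control for Cavin2, by -1.35 on the log2 scale, and for Ehd2, by -1.07. Both were tested as interactions, and list and oxygen level coincide in Cav1-KO.

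1 library, of a group that its labels do not settle, was outside every comparison. In CPM of its total count it held 4.43 of Cav1, 349.6 of Cav2, 4.3 of Cav3, 1068 of Cavin1, 259 of Cavin2, 51.9 of Cavin3, 320.5 of Ehd2, 162 of Pacsin2 and 37.7 of Pacsin3. Control libraries held 989 to 1356 CPM of Cav1 and Cav1-KO libraries 1.61 to 3.997. Its label names normoxic Cav1-KO females as a possible group, with the genotype, sex and oxygen level each given as uncertain, and the blot list, which holds its animal, gives the same group. Its Cavin2 value lay within the range of the listed libraries (240.4 to 420.0 CPM, scaled by TMM) and below that of Cav1-KO normoxia (848 to 978), and it was not assigned to a group.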

How the results depend on the processing

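Depth set no limit on the abundant members, while Cav3 (23 to 171 counts) and Cav1 outside Control (29 to 106 counts) rest on few counts. Counts of members called moved by over 1.5 times as follows. For Cav1-KO against Control in normoxia (4), females alone and the study's fold threshold gave 1 each. In hypoxia (2), the fits without libraries against their sex label, of females, of males and with the threshold gave 1 each. For Cav1-RC against Cav1-KO in normoxia (2), the replicate block and 1 fit over 34 libraries gave 1, and the fit without libraries against their sex label, females and the threshold gave 0. In hypoxia (5), females gave 3, the list term 0 and the threshold 1. For Cav1-RC against Control in normoxia (1), unlisted libraries, males and the list term gave 2. In hypoxia (2), unlisted libraries, females, the list term and the threshold gave 1 and males 4. For hypoxia in Control (0), DESeq2 gave 1, males 2, 1 fit over 34 libraries 2 and the list term 5. For hypoxia in Cav1-KO (6), 1 fit over 34 libraries gave 3, the list term 0 and the threshold 1. Males gave 1 for hypoxia in Cav1-RC (0), and the list term gave 1 for its difference from Control (0). With the list term the sign turned for Cav1-RC minus Cav1-KO in hypoxia of Cavin2 (-0.14), Ehd2 (-0.067) and Pacsin3 (0.21) and for hypoxia in Cav1-KO of Cav2 (0.028), Cav3 (-0.22) and Pacsin3 (-0.028). The cause was not tested.

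With each library left out in turn, counts ran from 3 to 6 for Cav1-KO against Control in normoxia and from 1 to 5 in hypoxia, from 1 to 5 and from 5 to 6 for Cav1-RC against Cav1-KO, from 1 to 1 and from 1 to 3 for Cav1-RC against Control, from 0 to 2 for hypoxia in Control, from 4 to 6 in Cav1-KO and from 0 to 1 in Cav1-RC, from 2 to 4 for the Cav1-KO response minus that of Control and from 0 to 0 for that of Cav1-RC. Sex differences ran from 0 to 2 for Cav1-KO against Control in hypoxia, from 0 to 3 for Cav1-RC against Cav1-KO in normoxia, from 0 to 1 for Cav1-RC against Control in hypoxia, from 0 to 2 for hypoxia in Cav1-RC and 0 elsewhere. Of the single member values, 315 kept direction and side of the threshold in the other alternatives, 41 lost the call and 6 turned, and with a library left out 365 kept them, 32 lost the call and 0 turned, and these counts cover only Cav1 and members called over all libraries of a comparison, so calls that other members gained in an alternative are outside them. The replicate block cost the calls of Pacsin2 in Cav1-KO against Control in normoxia, Cavin1 in Cav1-RC against Cav1-KO in normoxia and Cav2 for hypoxia in Cav1-KO, leaving 3, 1 and 5 members, and changed no other member's call in the comparisons. Over 177 pairs of same-numbered libraries of different groups the correlation of deviations from the group means ran from -0.43 to 0.56 (median 0.01, 32 over 0.1), so the numbers were not taken as pairing.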
